A study of Mus musculus with 6 samples.

Results

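The 10 genes described here encode proteins that fuse mitochondria (Mfn1, Mfn2, Opa1), cut the inner-membrane fusion protein (Oma1), divide mitochondria (Dnm1l, Fis1, Mff) and keep their matrix proteins folded or degrade them (Lonp1, Clpp, Hspd1). Their rows were taken from the deposited table by gene symbol, and the genes themselves were chosen with earlier results of these data known. All 10 were found among its 21959 genes, and all 10 were among the 14875 genes that passed the filter on low counts.

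Mitochondria form a network that is remodelled by opposing events. Mitofusins join the outer membranes of neighbouring mitochondria, OPA1 joins the inner membranes and shapes the cristae, and the protease OMA1 cleaves OPA1 under stress and stops inner-membrane fusion. The GTPase DRP1, encoded by Dnm1l, is drawn to the outer membrane by adaptors such as MFF and constricts the organelle, while LONP1 and CLPP degrade damaged matrix proteins and the chaperonin HSP60, encoded by Hspd1, folds imported ones. Brown adipocytes and striated muscle fibres are rich in mitochondria and depend on this machinery.

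RNA was sequenced in bulk from full-thickness dorsal skin of male C57BL/6 mice shaved in telogen, the resting phase of the hair cycle, at 7 weeks of age. Rebamipide, a drug known for protecting the gastric mucosa, was tested for its effect on hair regrowth, and the comparison asks which transcripts differ in skin before new hair growth sets in. The vehicle group (n = 3 mice) received 30% dipropylene glycol in 70% distilled water and the rebamipide group (n = 3 mice) received 3% rebamipide, both applied topically every day for 7 days. Each library came from 1 mouse.

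Vehicle libraries held 38676018 to 39915276 reads counted on genes, and rebamipide libraries held 32709801 to 34706852. Transcripts of the mitochondrial genome took 2.59% to 5.36% of the vehicle counts and 13.3% to 22% of the rebamipide counts. Levels are given as CPM, read counts scaled by library size with edgeR's TMM factors, after which the median log2 fold change of all tested genes was -0.175, against -0.778 when libraries were scaled by total counts alone. The tissue label was checked against cell type markers. The 8 keratinocyte markers summed to 6669 to 9762 CPM with vehicle, and rebamipide libraries 1, 2 and 3 had 2565, 1463 and 6.22 CPM; the third rebamipide library held 0 counts of Krt14 and 4 counts of Krt5, so its epidermal markers were at or near 0. The 8 brown adipocyte markers summed to 214 to 384 CPM with vehicle against 5039.9, 12960 and 10703 CPM with rebamipide, with Ucp1, the defining gene of that cell type, at 0 counts in every vehicle library. Of these 8, 7 were higher in every rebamipide library, and Elovl3, which made up most of each vehicle sum, was lower, at 176, 129 and 238 CPM with vehicle and 82.3, 83.1 and 33.3 CPM with rebamipide. The 8 general adipocyte markers summed to 1484 to 4386 and to 10458 to 18213 CPM, and 6 of them were higher in every rebamipide library. The groups overlapped for Cfd (372, 913 and 1781 CPM with vehicle, 1775, 818 and 1286.5 CPM with rebamipide). They also overlapped for Lep (47.9, 97.1 and 82.9 CPM with vehicle, 96.6, 30.5 and 31.1 CPM with rebamipide). In bulk tissue, fewer cells of a type and less RNA per cell cannot be told apart. Nor can a difference in the pieces of tissue sampled be told apart from the treatment here, so that every fold change below compares the libraries as they were sampled. The part of these shifts in the results was not tested.

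Of the 10 genes, 6 were higher in rebamipide-treated skin at an adjusted p under 0.05 in edgeR's quasi-likelihood test, 0 were lower and 4 did not pass. Over all tested genes, 14.1% were called higher and 6.51% lower. All 10 genes are annotated to the mitochondrion, and among the other 1648 tested nuclear genes with that annotation 44.1% were called higher and 2.55% lower, with a median log2 fold change of 0.85 (quartiles -0.10 and 1.73). The rebamipide libraries were all above the vehicle libraries for 6 of the 10 genes and the groups overlapped for 4, while 24.5% of all tested genes had every rebamipide library above and 24% every rebamipide library below. The genes that rose were Mfn2, Opa1, Mff, Lonp1, Clpp and Hspd1, and those that did not pass were Mfn1, Oma1, Dnm1l and Fis1. By role, of the mitofusins 1 of 2 rose, of the inner-membrane fusion protein and its protease 1 of 2, of the fission genes 1 of 3, and of the matrix quality-control genes 3 of 3.

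**Figure D1:**
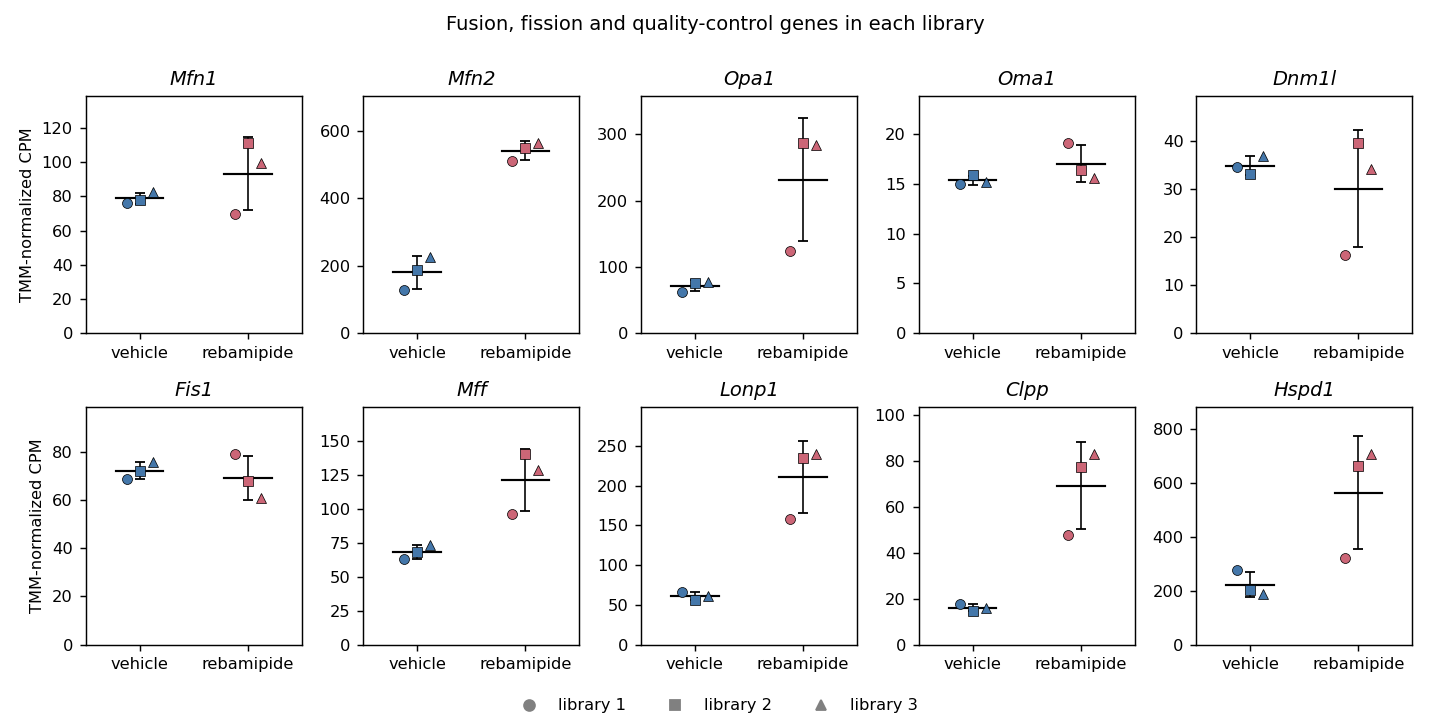
TMM-normalized CPM of the 10 genes (vertical axes, each from 0) in the vehicle (blue) and rebamipide (red) libraries. Each point is 1 library, with its shape giving the library number; horizontal lines are group means and error bars are SD (n = 3). Mfn2, Opa1, Mff, Lonp1, Clpp and Hspd1 have no overlap between groups, and rebamipide library 1 is the lowest rebamipide library in 8 of the 10 panels, all but Oma1 and Fis1.

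The mitofusins are a pair of related outer-membrane GTPases that tether and fuse neighbouring mitochondria, and MFN2 also links mitochondria to the endoplasmic reticulum. Mfn2 (ENSMUSG00000029020, chromosome 4, 147958056 to 147989161, minus strand, GRCm39) was at 129, 187 and 226 CPM with vehicle and 510.1, 551 and 564 CPM with rebamipide. The groups were well apart, and the mean rose 3.00-fold, from 181 ± 48.8 to 542 ± 28.2 CPM (SD, n = 3; log2 fold change 1.59, standard error 0.27, edgeR adjusted p = 0.0153). Mfn1 (ENSMUSG00000027668, chromosome 3, 32583614 to 32633388, plus strand) was at 76.4, 77.9 and 82.7 CPM in the vehicle group and 69.5, 111 and 99.5 CPM in the rebamipide group. The first rebamipide library was below all vehicle libraries and the other 2 were above them, so the groups overlapped. The log2 fold change of Mfn1 was 0.24 (95% interval -0.28 to 0.77, edgeR adjusted p = 0.429), and it was -0.40 with total counts alone and -0.38 on log2(FPKM + 1). The ratio of Mfn2 to Mfn1 in each library, computed on FPKM (counts per gene length and library size) so that scaling cancels, was 1.99, 2.82 and 3.22 with vehicle against 8.63, 5.83 and 6.67 with rebamipide. Mfn2 was thus the more abundant mitofusin per length in all 6 libraries, and the ratio was higher in each rebamipide library than in each vehicle library by 1.41 on the log2 scale (two-sided exact permutation p = 0.1, adjusted p = 0.114 over 8 gene pairs). With 3 against 3 libraries 0.1 is the smallest p this test can give, so no such comparison can reach 0.05. Of the 8 pairs compared here and below, 7 had groups that did not overlap, and so had 66% of the 1295245 pairs of nuclear mitochondrial genes, so that a pair without overlap is common among such genes.

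Because Mfn2 passed the threshold and Mfn1 did not, the stretch upstream of the start of each gene is shown. Each is given as 150 bases 5′ to 3′ in the RefSeq table of the GRCm38.p6 build. That build differs from the build of the gene positions. Capitals mark matches to the CCAAT box (CCAAT) and the GABP (ETS) site (CCGGAAG), searched on both strands.
Mfn1, chr3:32529315-32529464, plus strand: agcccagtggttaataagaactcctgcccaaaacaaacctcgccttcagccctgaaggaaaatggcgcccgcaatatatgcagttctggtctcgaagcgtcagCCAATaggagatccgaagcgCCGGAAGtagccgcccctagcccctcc
Mfn2, chr4:147904705-147904854, minus strand: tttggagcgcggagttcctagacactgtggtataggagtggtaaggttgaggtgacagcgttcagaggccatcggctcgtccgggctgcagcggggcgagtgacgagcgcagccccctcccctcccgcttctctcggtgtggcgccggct
The Mfn1 stretch held a CCAAT box 64 bases and a GABP site 44 bases before the start, and none of the 6 motifs searched was found in the windows of Mfn2. In RefSeq's 32851 windows of 300 bases (250 before the start and 50 after it), the CCAAT box occurred in 37.4% and the GABP site in 8.86%. A match describes letters in the window and no binding was measured.

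Opa1 encodes the dynamin-related GTPase that fuses inner membranes, and Oma1 the metalloprotease that cuts it. Opa1 (ENSMUSG00000038084, chromosome 16, 29398152 to 29473702, plus strand) was at 62.4, 76.0 and 77.2 CPM with vehicle and 124, 287 and 284 CPM with rebamipide. All rebamipide libraries were above the vehicle libraries, and the first was at 0.435 times the mean of the other 2. The mean rose 3.22-fold, from 71.9 ± 8.22 to 231 ± 93.0 CPM (log2 fold change 1.69 with a standard error of 0.36, edgeR adjusted p = 0.0265). Oma1 (ENSMUSG00000035069, chromosome 4, 103171009 to 103229065, plus strand) was at 15.0, 15.8 and 15.2 CPM with vehicle and 19.1, 16.4 and 15.6 CPM with rebamipide, and the groups overlapped. Its log2 fold change was 0.15 (95% interval -0.34 to 0.64, edgeR adjusted p = 0.603), and it was -0.45 with total counts alone and -0.42 on log2(FPKM + 1). The ratio of Oma1 to Opa1 was 0.883, 0.766 and 0.721 in the vehicle libraries and 0.565, 0.210 and 0.202 in the rebamipide libraries. Each rebamipide library therefore held less Oma1 per Opa1 transcript than any vehicle library, a difference of -1.45 on the log2 scale (two-sided exact permutation p = 0.1, adjusted p = 0.114). These are transcript levels, and cleavage of OPA1 protein was not measured in these files.

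DRP1 is a cytosolic GTPase that assembles around mitochondria to divide them, and MFF and FIS1 sit in the outer membrane, where MFF recruits it. Dnm1l (ENSMUSG00000022789, chromosome 16, 16130094 to 16176823, minus strand) was at 34.7, 33.1 and 37.0 CPM with vehicle and 16.4, 39.6 and 34.3 CPM with rebamipide. The first rebamipide library was at 0.443 times the mean of the other 2, which lay at the level of the vehicle group. The log2 fold change of Dnm1l was -0.21 (95% interval -1.04 to 0.61, edgeR adjusted p = 0.661), and without rebamipide library 1 it was 0.087. Fis1 (ENSMUSG00000019054, chromosome 5, 136982129 to 136995088, plus strand) was at 68.7, 72.0 and 75.7 CPM with vehicle and 78.9, 67.7 and 60.8 CPM with rebamipide. The vehicle values of Fis1 lay inside the range of the rebamipide values (log2 fold change -0.06, 95% interval -0.48 to 0.35, edgeR adjusted p = 0.806), and without rebamipide library 3 the log2 fold change was 0.030. With limma on log2(FPKM + 1), which scales by total counts, both Dnm1l (-0.79, adjusted p = 0.0416) and Fis1 (-0.67, adjusted p = 0.0416) were called lower.

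Mff (ENSMUSG00000026150, chromosome 1, 82702611 to 82730115, plus strand) was the fission gene that rose. It was at 63.2, 68.1 and 72.9 CPM with vehicle and 96.0, 139.9 and 128 CPM with rebamipide, with no overlap. The mean went from 68.1 ± 4.85 to 121 ± 22.7 CPM, a 1.78-fold rise (log2 fold change 0.83 with a standard error of 0.20, edgeR adjusted p = 0.0363), and with total counts alone the log2 fold change of Mff was 0.20 (adjusted p = 0.299). The ratio of Mff to Fis1 was 0.162, 0.166 and 0.169 with vehicle and 0.214, 0.363 and 0.370 with rebamipide. The vehicle libraries were nearly equal in this ratio and each rebamipide library was above them, by 0.89 on the log2 scale on average (two-sided exact permutation p = 0.1, adjusted p = 0.114).

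Fusion and fission GTPases were also set against each other within each library. The ratio of Opa1 to Dnm1l was 1.19, 1.52 and 1.38 with vehicle and 5.00, 4.78 and 5.46 with rebamipide, a difference of 1.90 on the log2 scale. This was the pair in which the rebamipide libraries lay closest together (SD 0.0975 on the log2 scale), although library 1 was low in both genes. The ratio of Mfn2 to Dnm1l was 3.72, 5.65 and 6.11 with vehicle and 31.2, 13.9 and 16.5 with rebamipide, a difference of 1.93 on the log2 scale. Both ratios were apart between groups (two-sided exact permutation p = 0.1 and adjusted p = 0.114 for each).

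**Figure D2:**
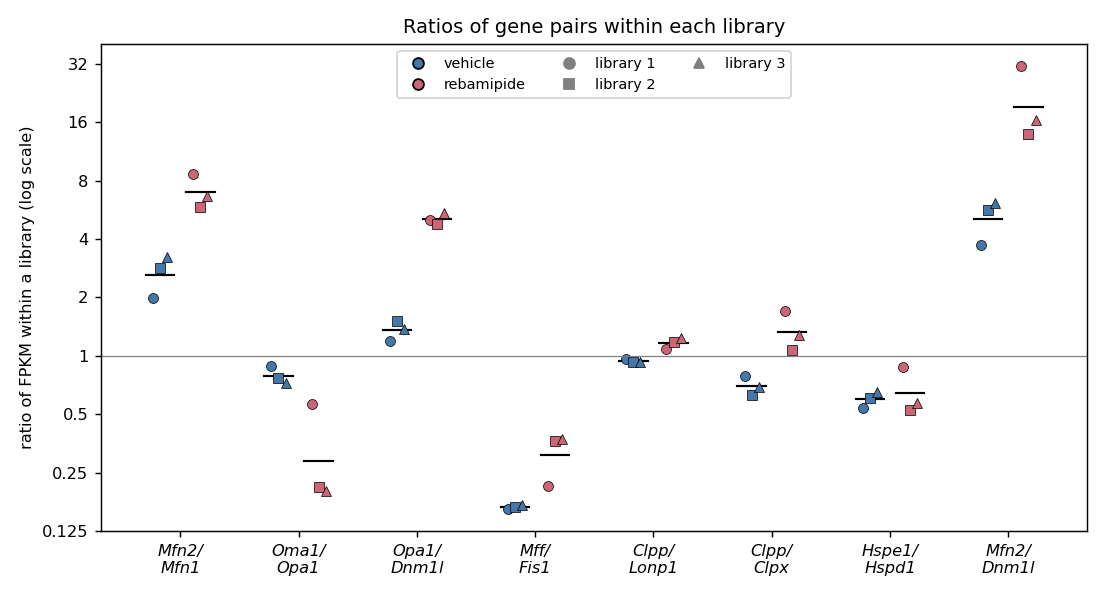
Ratio of the FPKM of 2 genes within each library (vertical axis, log scale) for the 8 pairs, vehicle in blue and rebamipide in red, with the point shape giving the library number and horizontal lines giving the mean of the log2 ratios. The groups are apart in 7 of 8 pairs, against 66% of all pairs of nuclear mitochondrial genes, and Hspe1/Hspd1 overlaps.

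The windows of this pair are shown because Opa1 rose where Dnm1l did not pass. Capitals mark the NRF1 core (GCATGCGC), the core letters bound by nuclear respiratory factor 1, a regulator of nuclear genes for mitochondrial proteins.
Opa1, chr16:29579184-29579333, plus strand: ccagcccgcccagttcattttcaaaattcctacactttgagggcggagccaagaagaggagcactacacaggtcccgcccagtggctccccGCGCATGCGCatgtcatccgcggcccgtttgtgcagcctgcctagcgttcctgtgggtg
Dnm1l, chr16:16359032-16359181, minus strand: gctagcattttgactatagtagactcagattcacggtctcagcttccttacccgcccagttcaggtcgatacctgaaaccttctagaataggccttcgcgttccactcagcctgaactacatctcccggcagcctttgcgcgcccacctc
The 10 capitals in Opa1 are an overlapping pair of matches, 59 and 57 bases before the start. Among all windows 2.71% held this core, and among the 16 windows of the 10 genes it was found in that of Opa1 alone. Both Opa1 and Dnm1l had a CCAAT box farther upstream than the bases shown, 194 and 222 bases before the start. A second start of Dnm1l, whose window is not shown, had a GABP site 13 bases after it.

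Lonp1 and Clpp encode the ATP-dependent LON protease and the proteolytic subunit of the CLPXP protease of the matrix. Clpp (ENSMUSG00000002660, chromosome 17, 57297305 to 57303188, plus strand) was at 17.7, 14.7 and 15.9 CPM with vehicle and 47.6, 77.5 and 83.0 CPM with rebamipide. It had the largest fold change of the 10 genes, 4.31-fold from 16.1 ± 1.52 to 69.4 ± 19.0 CPM (log2 fold change 2.11 with a standard error of 0.26, edgeR adjusted p = 0.00993). Lonp1 (ENSMUSG00000041168, chromosome 17, 56921297 to 56933887, minus strand) was at 66.2, 56.4 and 60.7 CPM with vehicle and 158, 235 and 239 CPM with rebamipide. It rose 3.45-fold, from 61.1 ± 4.92 to 211 ± 45.8 CPM (log2 fold change 1.79 with a standard error of 0.23, edgeR adjusted p = 0.00993). In both genes the lowest rebamipide library was more than 2 times the highest vehicle library.

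The ratio of Clpp to Lonp1 was 0.957, 0.932 and 0.934 with vehicle and 1.08, 1.18 and 1.24 with rebamipide. The proteases were near equal in level per length in both groups, with a small shift towards Clpp of 0.31 on the log2 scale. Clpx encodes the unfoldase that feeds proteins to CLPP, and the ratio of Clpp to Clpx was 0.786, 0.627 and 0.692 with vehicle and 1.69, 1.07 and 1.29 with rebamipide. The order of the CLPXP subunits thus turned from Clpx over Clpp to Clpp over Clpx in every library (0.93 on the log2 scale). Both ratios were apart between groups (two-sided exact permutation p = 0.1 and adjusted p = 0.114 for each). Clpx itself was at 64.4, 67.0 and 65.5 CPM and at 80.3, 207 and 184 CPM (log2 fold change 1.26, edgeR adjusted p = 0.0555).

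Upstream stretches of these protease genes are shown because they had the smallest p-values of the 10.
Lonp1, chr17:56626904-56627053, minus strand: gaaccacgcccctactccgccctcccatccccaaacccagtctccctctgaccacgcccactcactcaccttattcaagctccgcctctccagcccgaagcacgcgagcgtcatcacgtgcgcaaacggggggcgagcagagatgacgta
Clpp, chr17:56990114-56990263, plus strand: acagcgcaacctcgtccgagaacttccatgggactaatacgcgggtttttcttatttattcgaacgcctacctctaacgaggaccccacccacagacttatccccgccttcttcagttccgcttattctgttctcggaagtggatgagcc
Neither stretch held any of the 6 motifs, so no letters are in capitals. The window of Clpp had a GABP site 36 bases after the start, and the window of Lonp1 held none. The CHOP/ATF4 site (TTGCATCA), searched because CHOP and ATF4 act in the mitochondrial stress response, was in 0.895% of all windows and in 0 of the 16. The ERR element (TCAAGGTCA), bound by estrogen-related receptors, was in 0.423% of all windows and in 0 of the 16.

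HSP60 is the barrel-shaped chaperonin of the matrix and works with the co-chaperonin HSP10, encoded by Hspe1. Hspd1 (ENSMUSG00000025980, chromosome 1, 55116994 to 55127402, minus strand) was at 276, 204 and 187 CPM with vehicle and 322, 665 and 707 CPM with rebamipide. The groups did not overlap, but the first rebamipide library was near the first vehicle library and at 0.470 times the mean of the other rebamipide libraries. The mean rose 2.54-fold, from 222 ± 47.1 to 565 ± 211 CPM (log2 fold change 1.35 with a standard error of 0.37, edgeR adjusted p = 0.0488), the rise closest to the threshold. Hspe1 was at 82.5, 69.2 and 68.3 CPM with vehicle and 158, 195 and 225 CPM with rebamipide (log2 fold change 1.39, edgeR adjusted p = 0.0121). The ratio of Hspe1 to Hspd1 was 0.536, 0.609 and 0.654 with vehicle and 0.878, 0.526 and 0.571 with rebamipide, and the groups overlapped (0.10 on the log2 scale, two-sided exact permutation p = 0.9, adjusted p = 0.9). Hspd1 and Hspe1 lie head to head on opposite strands and overlap by 112 bases in the table, and the library protocol names no step that marks strand, without which reads in those bases cannot be told apart. Hspd1 also has pseudogene copies, and how shared reads were counted is not given in the sources used here. The heat shock element core (GAANNTTC), bound by heat shock factors, was found in 7.86% of all windows and, among the 10 genes, in a window of Hspd1 alone, 139 bases before that start, where it overlapped GABP sites 145 and 142 bases before the start.

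Levels were compared between genes as CPM per kilobase of gene length. In the vehicle group Hspd1 was the highest at 84.2 ± 17.8 CPM per kilobase, followed by Fis1 (42.1 ± 2.02) and Mfn2 (34.8 ± 9.39). The ranges of Fis1 and Mfn2 overlapped. Lonp1 (14.0 ± 1.12), Clpp (13.2 ± 1.24) and Mfn1 (12.9 ± 0.536) overlapped in range as neighbours, Opa1 stood alone at 9.12 ± 1.04, and Oma1 (7.15 ± 0.207), Mff (6.98 ± 0.497) and Dnm1l (6.72 ± 0.378) were the lowest, each overlapping its neighbour. In the rebamipide group Hspd1 (214 ± 79.9) and Mfn2 (104 ± 5.43) were apart from the rest and from each other. Clpp (56.7 ± 15.5), Lonp1 (48.2 ± 10.5), Fis1 (40.3 ± 5.32), Opa1 (29.4 ± 11.8), Mfn1 (15.3 ± 3.51) and Mff (12.4 ± 2.33) followed, and neighbours from Clpp to Mff overlapped in range. Mff was apart from Oma1 (7.93 ± 0.854), which overlapped Dnm1l (5.79 ± 2.34), the lowest. Fis1 went from rank 2 to rank 5 and Clpp from rank 5 to rank 3.

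Since nuclear genes for mitochondrial proteins were higher on the whole, each gene was also read against their mean log2 CPM in the same library, a difference that does not depend on library scaling. That mean was 4.41, 4.55 and 4.61 in the vehicle libraries and 5.20, 5.45 and 5.28 in the rebamipide libraries. Relative to it, Clpp (1.28), Lonp1 (0.98), Mfn2 (0.84) and Opa1 (0.81) were higher on the log2 scale in every rebamipide library than in any vehicle library. Dnm1l (-1.10), Fis1 (-0.86), Oma1 (-0.64) and Mfn1 (-0.57) were lower in every rebamipide library than in any vehicle library. Hspd1 (0.50) and Mff (0.03) overlapped (two-sided exact permutation p = 0.2 and 1, adjusted p = 0.222 and 1). Among the 1648 nuclear mitochondrial genes, 35.5% were higher and 32.8% lower in this way, so the 8 of 10 members with groups apart, 4 in each direction, lie near the background. Each of the 8 was at the smallest possible exact permutation p of 0.1 and an adjusted p of 0.125 over the 10 genes. The rise of Mff was not told apart from that of the mitochondrial mean.

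**Figure D3:**
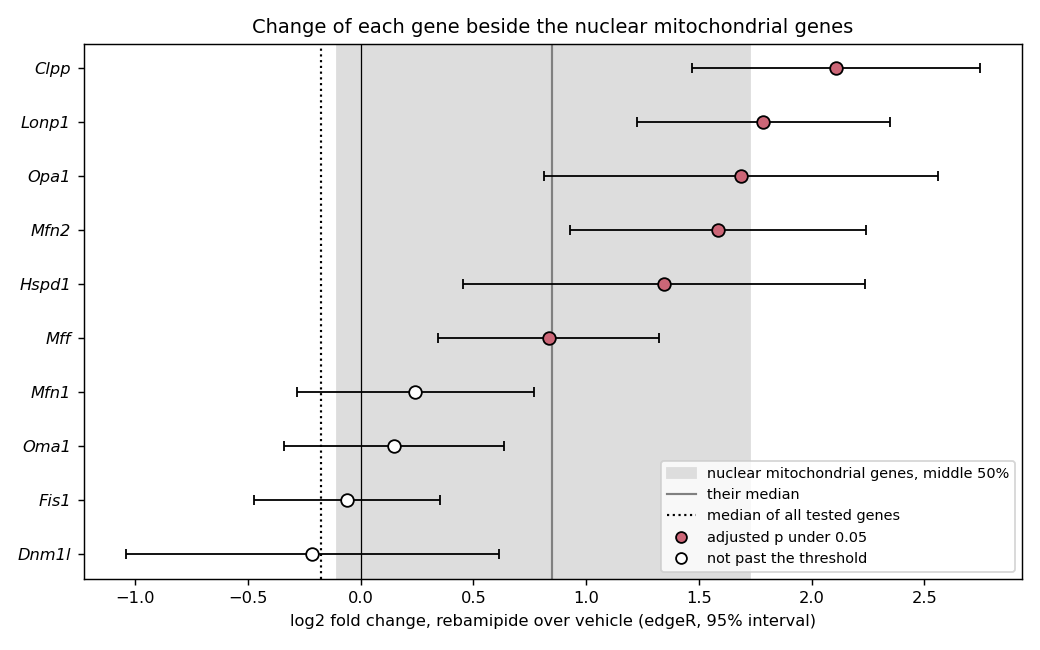
Log2 fold change of each gene, rebamipide over vehicle, from edgeR with 95% intervals (horizontal axis). Filled points passed an adjusted p under 0.05; the grey band holds the middle 50% of the nuclear mitochondrial genes with their median (0.85) as a grey line, and the dotted line is the median of all tested genes (-0.175). Clpp and Lonp1 lie above the band, Dnm1l (-0.21) lies below it, and the other 7 points lie inside.

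The calls depended on how the libraries were scaled and on single libraries. With total counts alone, 1258 genes were higher and 3752 lower over all genes, against 2093 and 968 with TMM. In that fit 4 of the 10 genes (Mfn2, Opa1, Lonp1, Clpp) were higher, where 8.46% of all genes were, and 0 were lower, where 25.2% of all genes were. The log2 fold changes in that fit were smaller, at 0.97 for Mfn2 (edgeR adjusted p = 0.0340), 1.02 for Opa1 (0.0401), 1.14 for Lonp1 (0.0123), 1.46 for Clpp (0.0107), 0.68 for Hspd1 (0.127) and 0.20 for Mff (0.299). At the thresholds named in the study's methods, an unadjusted p under 0.05 with a log2 fold change beyond 1 in size, edgeR called 5 of the 10 genes higher (Mfn2, Opa1, Lonp1, Clpp, Hspd1) and 14.3% of all genes. DESeq2 at those thresholds called the same 5 genes and 12.6% of the 17835 genes it was run on.

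When single libraries were left out, the calls of edgeR on Mfn2, Lonp1 and Clpp were lost without vehicle library 2 (adjusted p = 0.0921, 0.0747 and 0.0747) and without rebamipide library 2 (0.0740, 0.0573 and 0.0573), and held without any of the other 4. The calls on Opa1, Mff and Hspd1 were lost without any library except rebamipide library 1, with adjusted p from 0.0521 to 0.107 for Opa1, 0.0522 to 0.144 for Mff and 0.0692 to 0.163 for Hspd1. Without vehicle library 2 edgeR called 0 genes of the whole table, although 4116 genes and 6 of the 10 had an unadjusted p under 0.05, and DESeq2 without that library called 6 of the 10 higher while limma-voom called 0. Without rebamipide library 2 DESeq2 called 4 and limma-voom 0. Mfn1 ran from 0.10 to 0.42 in the edgeR fits with 1 library left out and did not pass in any of them, whereas DESeq2 called it higher without rebamipide library 1 (0.42, adjusted p = 0.0115). Without rebamipide library 3, the library with almost no keratinocyte transcripts, edgeR called Mfn2 (log2 fold change 1.56, adjusted p = 0.0432), Lonp1 (1.69, 0.0279) and Clpp (1.97, 0.0249), while Opa1 (1.52, 0.0642), Hspd1 (1.16, 0.120) and Mff (0.80, 0.112) missed the threshold. In the edgeR fits with 1 library left out, the log2 fold changes of the 6 genes were all positive, from 0.73 (Mff) to 2.32 (Clpp), and with DESeq2 and limma-voom they ran from 0.71 (Mff, limma-voom) to 2.33 (Clpp, DESeq2).

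**Figure D4:**
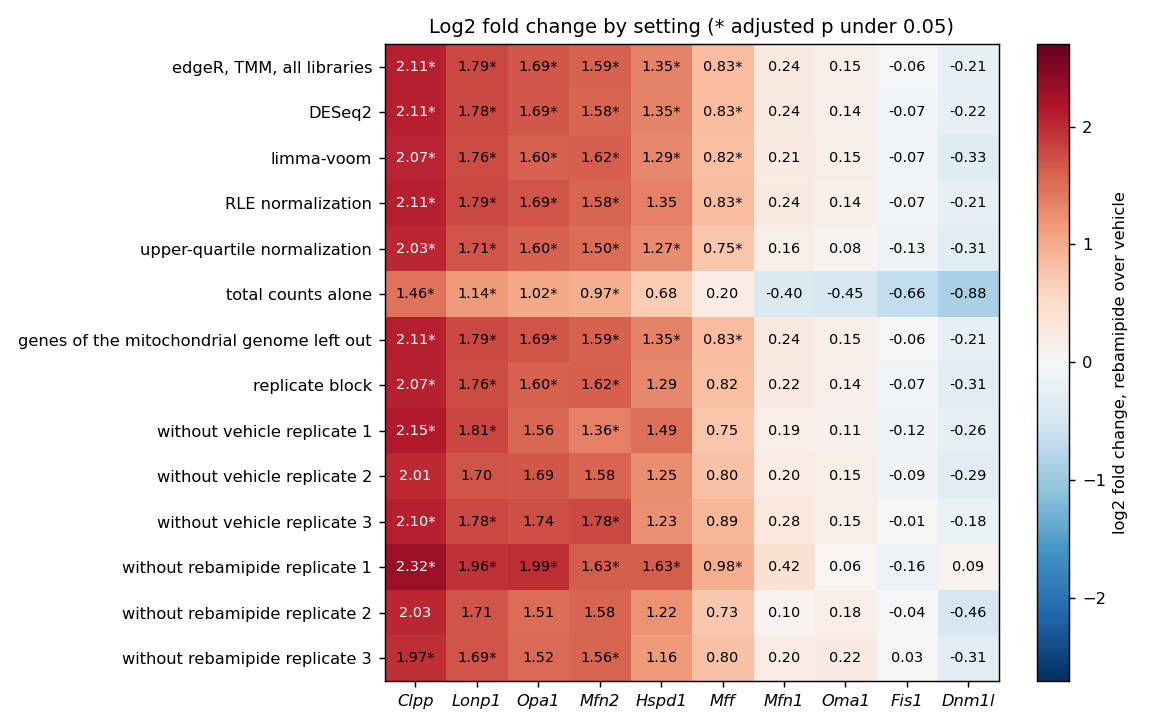
Log2 fold change of each gene (columns, ordered by the edgeR value) under each way of fitting the counts (rows), printed in the cells and coloured from blue (lower with rebamipide) to red (higher); an asterisk marks an adjusted p under 0.05. Clpp keeps its call in 12 of the 14 rows, and total counts alone moves every gene downward.

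Other genes of the same pathways were followed in 8 lists of 67 genes, of which 65 were tested. Of these, 39 were higher, 0 were lower and 26 did not pass in edgeR, with a median log2 fold change of 1.37. Over all tested genes 14.1% were called higher, with a median of -0.175, and over the nuclear mitochondrial genes 44.1%, with a median of 0.85. The counts of the single lists below are read against the same shares. The stress response genes Fgf21 (2 to 28 counts per library) and Gdf15 (2 to 20 counts) did not pass the filter. Among 6 fusion partners and regulators, 3 were higher (median 1.72). Miga2, which promotes fusion through phospholipids of the outer membrane, was at 25.6, 35.2 and 39.0 CPM with vehicle and 124, 227 and 263 CPM with rebamipide (log2 fold change 2.62, edgeR adjusted p = 0.0101). Its paralogue Miga1 (chosen for mention once its values had been seen) stood at 12.9, 8.89 and 5.90 CPM with vehicle and 3.62, 4.64 and 3.09 CPM with rebamipide, with every rebamipide library below (log2 fold change -1.29, edgeR adjusted p = 0.0595). The outer-membrane protein gene Mtch2 went from 106 ± 17.2 to 577 ± 171 CPM (log2 fold change 2.45, edgeR adjusted p = 0.00993).

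Of 7 genes for OPA1 processing and prohibitins, the inner-membrane scaffolds that stabilize OPA1, 5 were higher (median 1.48). Phb rose from 83.8 ± 7.50 to 315 ± 68.9 CPM, and Spg7, a subunit of the m-AAA protease, rose by 1.48 on the log2 scale (edgeR adjusted p = 0.00993 and 0.00953). Yme1l1, the second protease that cuts OPA1, was named after its values were seen: it was at 63.5, 63.2 and 60.0 CPM with vehicle and 18.3, 41.7 and 39.7 CPM with rebamipide, below every vehicle library (log2 fold change -0.91, edgeR adjusted p = 0.0957). Among the 10 other fission genes 4 were higher (median 0.55), near the 44.1% of nuclear mitochondrial genes. Mtfp1, an inner-membrane fission protein gene, rose from 6.93 ± 3.14 to 48.6 ± 10.5 CPM and Mief1, a DRP1 receptor gene, from 32.4 ± 7.45 to 68.1 ± 14.6 CPM (log2 fold change 2.81 and 1.07, edgeR adjusted p = 0.0123 and 0.0362).

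Of 9 other proteases, 7 were higher (median 1.45). Immp2l, an inner-membrane peptidase gene, was at 1.54, 3.29 and 3.81 CPM with vehicle and 36.7, 65.7 and 72.1 CPM with rebamipide (log2 fold change 4.34, edgeR adjusted p = 0.00939), the largest rise in the 8 lists. Pmpcb, which encodes the catalytic subunit that trims import signals, rose by 2.22 on the log2 scale (edgeR adjusted p = 0.00939). Of the 6 chaperone genes besides Hspd1, 5 were higher (median 2.01). They included Hspa9, the matrix HSP70 gene, at 296 ± 27.4 and 1181 ± 333 CPM, and its co-chaperone gene Dnaja3 at 64.6 ± 3.50 and 347 ± 84.8 CPM (log2 fold change 1.99 and 2.43, edgeR adjusted p = 0.0125 and 0.00939). Grpel2 (-0.20, adjusted p = 0.583), which was named after its values were seen, was the chaperone gene that did not pass.

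All 8 genes listed for MICOS, the complex that holds cristae junctions, its outer-membrane partner gene Samm50 included, were higher, with log2 fold changes from 1.62 to 2.22. Immt, the core MICOS gene, went from 142, 147 and 153 CPM to 473, 778 and 811 CPM (edgeR adjusted p = 0.00993). Of the 12 mitophagy genes, 4 were higher (median 1.00), a share no higher than the 44.1% of nuclear mitochondrial genes. The ubiquitin ligase gene Marchf5 rose by 2.01 and Mul1 by 1.37 on the log2 scale (edgeR adjusted p = 0.00993 and 0.0119). Pink1, the kinase that marks damaged mitochondria, was at 68.2, 172 and 240.2 CPM with vehicle and 349, 306 and 363 CPM with rebamipide (edgeR adjusted p = 0.130). The receptor gene Bnip3 was at 21.6, 89.9 and 133 CPM and at 213, 280 and 374 CPM (edgeR adjusted p = 0.0883). In both, the vehicle libraries were spread widely and still lay below all rebamipide libraries.

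Of 7 tested stress response genes, 3 were higher (median 0.93). Atf4, the transcription factor gene at the centre of the integrated stress response, was at 163, 122 and 144 CPM with vehicle and 132, 134 and 119 CPM with rebamipide, with overlap (log2 fold change -0.16, edgeR adjusted p = 0.558). Asns, an asparagine synthetase gene that ATF4 activates, was at 35.3, 30.2 and 35.7 CPM and at 74.1, 121 and 133 CPM (log2 fold change 1.70, edgeR adjusted p = 0.0125). Atf5, a regulator of the mitochondrial unfolded protein response, missed the threshold (0.90, adjusted p = 0.0538).

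**Figure D5:**
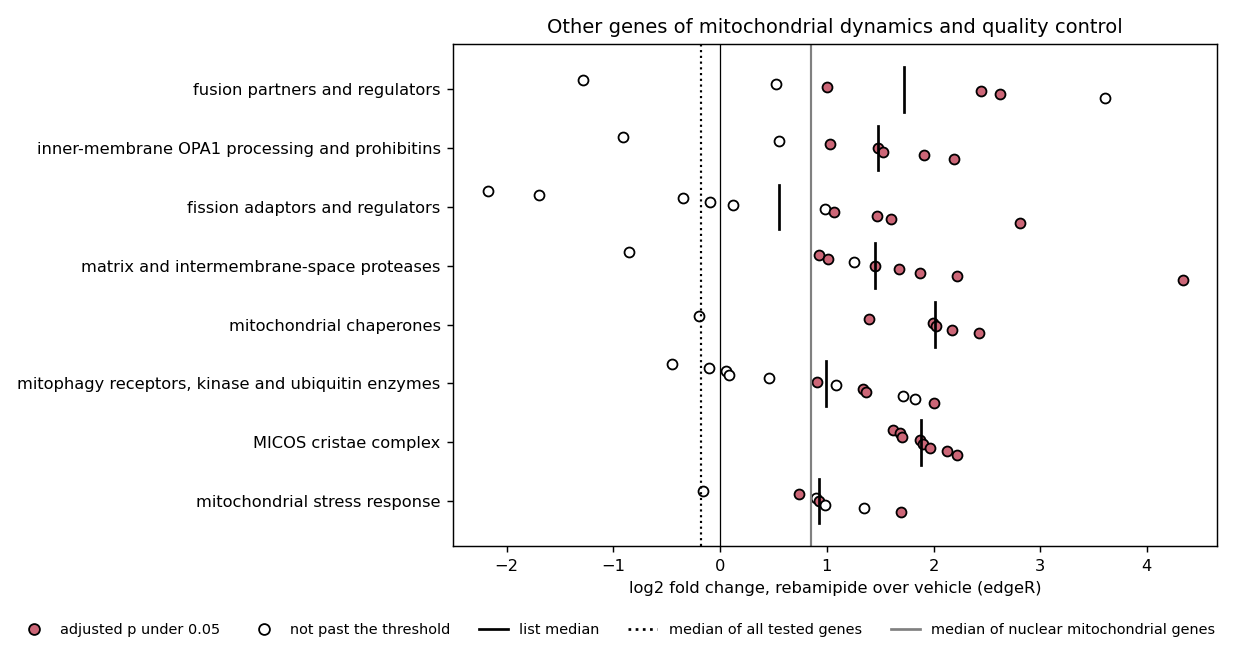
Log2 fold change, rebamipide over vehicle, of the 65 tested pathway genes in 8 lists (rows). Each point is 1 gene, filled at an edgeR adjusted p under 0.05; black bars are list medians, the grey line is the median of nuclear mitochondrial genes (0.85) and the dotted line the median of all tested genes (-0.175). All 8 MICOS cristae genes are filled and above 0, and each of the other 7 lists has at least 1 gene below 0 that did not pass.

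Among the summed markers of other cell types, the groups were apart for endothelial and red cell markers. For the other lists in this paragraph the sums overlapped. The 6 endothelial markers summed to 228 to 525 CPM with vehicle and 1061 to 1470.5 CPM with rebamipide, and the 5 red cell markers to 42.4 to 200 and 345 to 809 CPM. Of the endothelial markers, 4 were called higher and 5 had every rebamipide library above. Vwf overlapped, at 30.5, 62.0 and 90.9 CPM with vehicle and 88.8, 31.6 and 39.8 CPM with rebamipide. Fast skeletal muscle markers, from a tissue rich in mitochondria, overlapped, at 5317, 22388 and 26416 CPM with vehicle and 33731, 7111 and 272 CPM with rebamipide. The summed fibroblast markers were at 12002, 13735 and 17735 CPM with vehicle and 15112, 3503 and 1850 CPM with rebamipide, so rebamipide libraries 2 and 3 lay below every vehicle library and library 1 did not. Summed leukocyte markers overlapped too, at 334 to 736 and 198 to 714 CPM. Slow skeletal muscle markers were at 2.07 to 13.5 CPM with vehicle and 290.1, 129 and 7.02 CPM with rebamipide. Of these 6 markers, 4 were called higher and had every rebamipide library above, among them the slow myosin gene Myh7, at 0.0401, 0.122 and 0.0855 CPM with vehicle and 69.8, 36.9 and 1.41 CPM with rebamipide. In rebamipide library 3, where both muscle lists were lowest in the group, Mfn2, Opa1, Lonp1, Clpp and Hspd1 were as high as or higher than in library 1, at 564, 284, 239, 83.0 and 707 CPM. The summed brown adipocyte (5039.9 CPM), general adipocyte (10458), endothelial (1061) and red cell (345) markers were each lowest, within the group, in rebamipide library 1, the rebamipide library in which Mfn1, Mfn2, Opa1, Dnm1l, Mff, Lonp1, Clpp and Hspd1 were lowest. Within the group, rebamipide library 1 was highest in the summed keratinocyte (2565 CPM), fibroblast, fast muscle, slow muscle, leukocyte and growing hair follicle markers. Markers of growing hair follicles summed to 2575, 877 and 21.5 CPM with vehicle and 82.6, 0.740 and 0.229 CPM with rebamipide, although all mice were shaved in telogen. The part of these cell types in the results was not tested.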

How the data were processed

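RNA-seq counts and FPKM of 6 libraries were taken from 1 table. The counts deposited by the authors are raw reads per gene. Deposited FPKM were counts over gene length and summed library counts. The submitters' processing notes name fastp 0.22.0, HISAT2 2.1.0, HTSeq 0.9.1 and GRCm39. Poly-A libraries were sequenced, and how strand and multiply mapped reads were counted is not given in the sources used here.

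The main test was edgeR 4.0.16 in R 4.3.3 (TMM, filterByExpr, quasi-likelihood test, no covariates, Benjamini-Hochberg adjustment over all 14875 tested genes). The standard error of a log2 fold change is its size over the square root of F. CPM are TMM-normalized, as mean ± SD over 3 libraries. Each library is 1 mouse. The edgeR test sets the difference between groups against the spread between libraries, in which mouse and piece of tissue cannot be told apart. Gene pairs (FPKM ratios) and differences from the mitochondrial mean (log2 CPM with a prior count of 2) were compared with two-sided exact permutation tests. Libraries of a group were not alike within counting error (chi-square over its degrees of freedom 79.08 to 713.6), so none was counted as a duplicate. The tests were run on simulated counts with as many genes raised as lowered, a balance that the calls in these data do not have.

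Alternatives were DESeq2 1.42.0, limma-voom (limma 3.58.1), other normalizations, filters and thresholds, a replicate block, limma on log2(FPKM + 1) and log2(FPKM + 0.1), and each library left out in turn. Leaving out libraries in DESeq2 and limma-voom was added after seeing the data. The genes named are all 10 members, the other genes of a pair and, of each pathway list, up to 3 with the smallest p-values and 2 with the highest mean FPKM. Miga1, Yme1l1 and Grpel2 fall outside this rule and were named after their values were seen, as were single cell type markers. The 10 genes, lists, pairs and motifs were chosen with earlier results of these data known. Upstream windows are RefSeq's for GRCm38.p6, with 16 windows matched to the 10 genes by symbol. Figures were drawn in Python 3.11.15 with matplotlib 3.10.9. Each motif was searched on both strands.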

Additional observations from a re-analysis of the deposited data

How the results depend on the processing

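The 10 genes gave 4 to 6 higher calls in every fit that kept all 6 libraries at an adjusted p under 0.05. At an adjusted p under 0.01, 2 of them passed, with 320 genes higher and 20 lower in all. With total counts alone 1258 genes were higher and 3752 lower, and with limma on log2(FPKM + 1) 4809 were lower, including 2 of the 10, and with log2(FPKM + 0.1) 1391 were higher and 4777 lower, including 2 of the 10. Genes called lower numbered 2552 with DESeq2, 1512 at 10 counts or more in every library, 2264 at an adjusted p under 0.1 and 2161 at the thresholds of the study. The alternatives were run for the 10 genes and the pathway genes that met the naming rule, and not for the other pathway genes. Among those run, log2 fold changes that changed sign with total counts alone, log2(FPKM + 1) and log2(FPKM + 0.1) were those of Mfn1 (-0.40, -0.38, -0.40), Oma1 (-0.45, -0.42, -0.47) and Mtfr1 (-0.52, -0.47, -0.50); these fits do not correct for composition. When single libraries were left out, edgeR called 0 to 6 of the 10 higher, 0 to 2810 genes higher and 0 to 1971 lower. DESeq2 called 4 to 7 of the 10, 1952 to 3628 genes higher and 1475 to 4251 lower (2026, 2114 and 2401 lower without vehicle libraries 1, 2 and 3, and 1866 without rebamipide library 3). limma-voom called 0 to 6 of the 10, 210 to 2783 higher and 7 to 1384 lower (256 and 14 without rebamipide library 2, 910 and 268 without rebamipide library 3). With 1 library left out in edgeR, Dnm1l ran from -0.46 to 0.087, Fis1 from -0.16 to 0.030 and Mtfr1 from -0.011 to 0.28. The sign of Dnm1l turned without rebamipide library 1 (0.089 in DESeq2, 0.085 in limma-voom), that of Fis1 without rebamipide library 3 (0.054, 0.029) and that of Mtfr1 without vehicle library 3 (-0.0219 in limma-voom), and the cause was not tested. Samples that share a replicate number did not deviate together (correlations -0.0164, -0.0382 and 0.00316), and those with unlike numbers ran from -0.323 to 0.379. With 3 libraries per group, such correlations cannot show whether the numbers pair the mice. A replicate block gave 1432 genes higher and 855 lower and 4 of the 10 higher, with Mff at an edgeR adjusted p of 0.0612 and Hspd1 at 0.122. RLE normalization and no filter each put Hspd1 at an adjusted p of 0.0508. With 1 library left out, the ratio of Hspe1 to Hspd1 differed by -0.12 to 0.25 (log2), and against the mitochondrial mean Mff ran from -0.029 to 0.14 and Hspd1 from 0.28 to 0.80. With 3 mice per group, the 95% intervals of Mfn1, Oma1, Dnm1l and Fis1 span rises and falls (for Dnm1l -1.04 to 0.61), and an exact test cannot go below p = 0.1.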
